A study of Mus musculus with 8 samples.

Results

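A set of 9 genes of the bone morphogenetic protein (BMP) system were followed in muscle stem cells with and without added Hoxa9. They are the secreted ligands Bmp2, Bmp4, Bmp6 and Bmp7 and the secreted antagonists Chrdl1, Chrdl2, Grem1, Nog and Nbl1. They were chosen by name, with earlier results of these data known. The 9 genes had 12 probes on the array, among 55501 probes and 34748 gene names that could be used in all. Of the 12 probes, 11 passed a filter on dim probes, which asked for a signal well above background on at least 4 of 8 arrays.

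The cells were satellite cells, stem cells that lie on the muscle fibre under its basal lamina, sorted from hindlimbs of C57BL/6J mice aged 3 to 4 months. After a night in growth medium they were transduced with lentivirus, and eGFP-positive cells were sorted 5 days later. Of the samples, 4 carried an integrated eGFP cDNA (the eGFP group, the control) and the other 4 carried Hoxa9-eGFP, so both groups had gone through culture, viral integration and sorting. Hoxa9 is a homeobox transcription factor. The promoter that drove the transgenes and the number of animals behind each sample were not given in the sources used here, so each p-value measures spread among samples that may differ only technically. RNA (0.1 ug) was amplified, labelled with Cy3 and hybridised to 1-colour Agilent mouse arrays.

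BMPs are ligands of the TGF-beta superfamily. They bind type I and type II serine/threonine kinase receptors, which phosphorylate Smad1, Smad5 and Smad9, and these enter the nucleus with Smad4 and switch on genes such as the Id genes. Secreted antagonists bind the ligands outside the cell and keep them from the receptors. In satellite cells and myoblasts BMP signalling is known to favour proliferation over differentiation.

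The 8 arrays had 69.6% to 77.5% of non-control spots well above background, and no spot was saturated. A level below is the log2 processed signal minus the 75th percentile of its own array, so a level of 0 is the 75th percentile of all probes. Levels describe a probe, not molecules, and probes are not ranked against each other. The arrays lay on 3 slides, each with both groups, and the titles number the experiments 1 to 4 in each group. The eGFP and Hoxa9-eGFP samples of the same number never shared a slide. A difference by experiment below is therefore also a difference between slides. The transgene was checked first. A first Hoxa9 probe (A_55_P2066103) went from -0.47 ± 0.45 to 5.51 ± 0.21 (SD, n = 4 each). The other (A_55_P1979768) fell from -1.69 ± 0.19 to -3.43 ± 0.086. The probes thus ran in opposite directions. The satellite cell label had its defining markers, since Pax7, Myod1, Des and Itga7 were well above background on all 8 arrays.

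The sequences below are those on which the reading of Bmp4, Chrdl1, Chrdl2 and Bmp2 rests. Each is the first 30 of the probe's 60 bases, 5′ to 3′ as in the scanner file, in lower case throughout. They are shown because 2 genes were read by several probes that gave unlike levels.
Bmp4 A_55_P2154387: caaccacctacacataccacacaaactgct
Bmp4 A_55_P1959022: gacaaatatatttataactacatattaaaa
Chrdl1 A_66_P124091: aaattcaggtggaagcatgcttattagggg
Chrdl1 A_55_P2123683: agaagatttccaagaggatgtttggggagc
Chrdl1 A_55_P1955627: cacaggacatgtacccaaatatggtactta
Chrdl2 A_55_P2021689: ccaagacattatagcaaggacctaaagagt
Bmp2 A_55_P2041961: cccttccagggggctgatctggccaaagta

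The probe positions are those of the array's own files, on mouse build mm9. The Bmp4 probes lie on the minus strand at chr14:47003391-47003450 and chr14:47003198-47003257, 133 bases apart, and both carry the accession NM_007554. They differ in base composition, with 38.3% G or C in the first and 15% in the second. The Chrdl1 probes lie on the minus strand at chrX:139732534-139732593, chrX:139725644-139725703 and chrX:139720248-139720307. The first carries the accession NM_031258 and the other two NM_001114385. The Bmp2 probe is at chr2:133388260-133388319 on the plus strand and the Chrdl2 probe at chr7:107183146-107183205 on the plus strand. No annotation of mm9 was used here, so exon and transcript positions are not given.

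Of the 11 tested probes 6 rose with Hoxa9-eGFP and 0 fell at an adjusted p under 0.05 (limma, Benjamini-Hochberg over 40771 probes). Without adjustment, at p under 0.05, the counts were also 6 and 0. The background was 6.82% of all tested probes higher and 6.65% lower (13.5% in either direction). The 6 probes belong to 4 genes, the ligands Bmp2 and Bmp4 and the antagonists Chrdl1 and Chrdl2. In the same 6 probes the 2 groups of arrays did not overlap, the Hoxa9-eGFP arrays being higher, against 10.3% of all tested probes in that direction (22.3% in either). The median difference over the 11 probes was 1.46 in log2 units, beside -0.070 over all tested probes. These figures count Chrdl1 3 times. Taken by gene, 4 of the 9 genes had a probe called higher, beside 7.44% of 27109 genes by their brightest kept probe. With 1 probe per gene the middle gene of the 9 was Bmp7, with a difference of 0.58. The 3 Chrdl1 probes passed the filter only through the Hoxa9-eGFP arrays, and Chrdl2 largely so. Without the filter, 6 of all 12 probes were called higher and 0 lower, beside 4.19% and 3.77% of 55501 probes (7.97% in either direction), and the median was 1.02. These are bulk samples, so more cells of a type and more RNA per cell cannot be told apart.

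**Figure D1:**
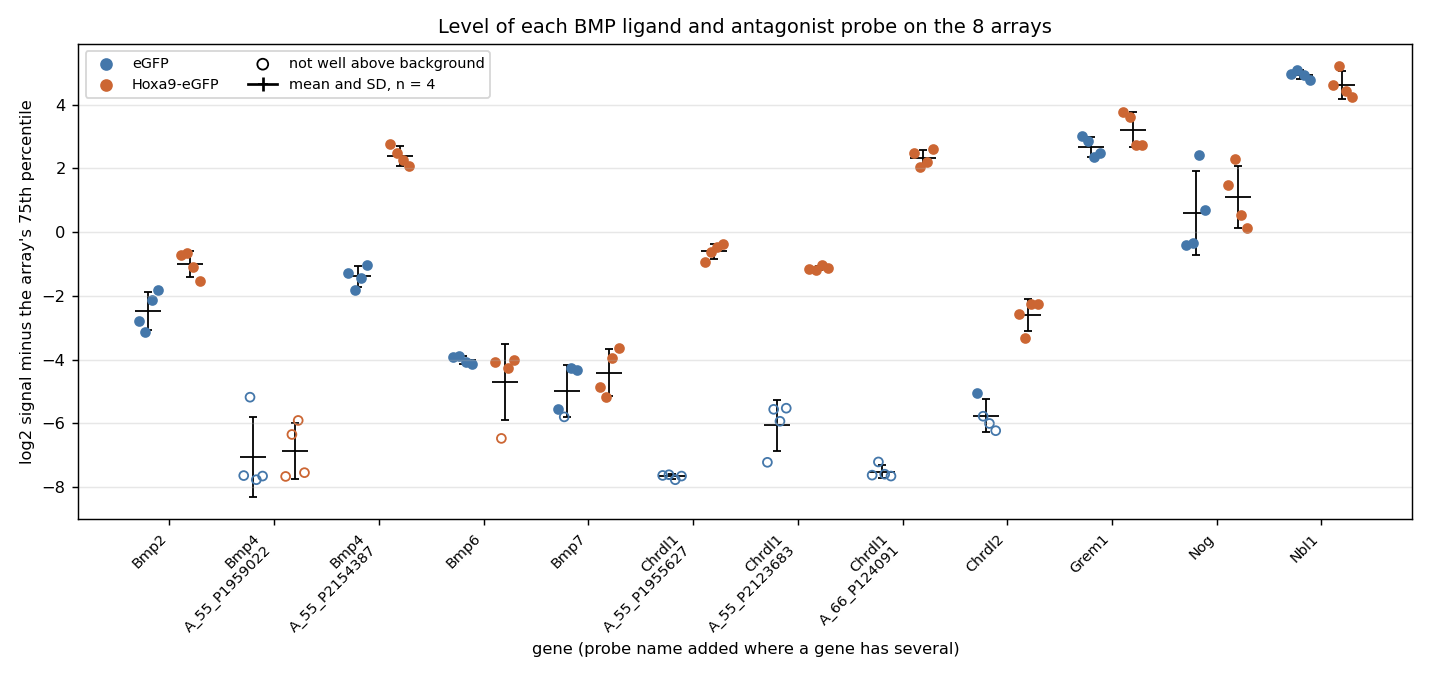
Level of each BMP ligand and antagonist probe on the 8 arrays, as log2 processed signal minus the array's 75th percentile. Blue points are eGFP, orange points Hoxa9-eGFP, open points are not well above background, and the cross is the mean with its SD (n = 4). The groups stand fully apart in Bmp2, 1 Bmp4 probe, the 3 Chrdl1 probes and Chrdl2, and overlap in the rest.

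Bmp4, a BMP ligand made by many mesenchymal tissues, rose the most among the ligand probes. By probe A_55_P2154387 its level was -1.27, -1.82, -1.43 and -1.03 in the 4 eGFP samples and 2.76, 2.49, 2.25 and 2.06 in the 4 Hoxa9-eGFP samples. All Hoxa9-eGFP samples lay well above all eGFP samples, and each group spread over less than 1 log2 unit. The difference was 3.78 (SE 0.23, 95% interval 3.26 to 4.29), or 13.7-fold, with an adjusted p of 6.36e-05. It was 3.61, 4.06 and 3.28 within slides 1, 2 and 3.

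The other Bmp4 probe gave no reading. Probe A_55_P1959022 was not well above background on any of the 8 arrays, with levels from -7.77 to -5.18 in eGFP and from -7.67 to -5.91 in Hoxa9-eGFP. It did not pass the filter. In the fit of all probes its difference was 0.19 (SE 0.67, adjusted p = 0.892). The Bmp4 result therefore rests on 1 probe.

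Bmp2, the closest relative of Bmp4 among the ligands, rose too. Its level was -2.79, -3.12, -2.13 and -1.82 in the eGFP samples and -0.73, -0.67, -1.09 and -1.54 in the Hoxa9-eGFP samples. The groups did not overlap, but the lowest Hoxa9-eGFP sample and the highest eGFP sample, both from experiment 4, lay close together. The difference was 1.46 (SE 0.33, 95% interval 0.71 to 2.21), or 2.75-fold, with an adjusted p of 0.0207. By experiment it was 2.06, 2.46, 1.04 and 0.28, and by slide 1.42, 1.43 and 0.73. The call was lost with the experiment as a block (adjusted p = 0.0738) and without eGFP replicate 1 (0.0589), eGFP replicate 2 (0.0524) or Hoxa9-eGFP replicate 1 (0.0607).

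Bmp6, known for its role in iron balance, and Bmp7, known from kidney and bone, did not pass the test. Bmp6 was at -3.91, -3.89, -4.06 and -4.14 in the eGFP samples and at -4.06, -6.47, -4.25 and -4.02 in the Hoxa9-eGFP samples. Hoxa9-eGFP replicate 2 was the low one, and there the probe was not well above background. The difference was -0.70 (SE 0.52, 95% interval -1.89 to 0.49, adjusted p = 0.436). It was -0.15 with the normexp correction (a background correction described for Chrdl1) and -0.34 with array weights. It moved to -0.11 without that array, the other 3 Hoxa9-eGFP samples lying inside or next to the eGFP range.

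Bmp7 was at -5.56, -5.80, -4.26 and -4.34 in the eGFP samples and at -4.85, -5.18, -3.96 and -3.62 in the Hoxa9-eGFP samples. In both groups experiments 3 and 4 were higher than 1 and 2, and the groups overlapped. The difference was 0.58 (SE 0.48, 95% interval -0.51 to 1.67, adjusted p = 0.477). It was 0.31 without eGFP replicate 2, 0.32 without Hoxa9-eGFP replicate 4 and 0.21 with the normexp correction. It was above 0 in all 4 experiments (0.29 to 0.71), but within slides it was 2.06, -0.76 and 0.37. With the experiment as a block the SE was 0.14 and the adjusted p was 0.0587.

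Among the antagonists, Chrdl1 (chordin-like 1, a secreted protein with chordin-type repeats that binds BMPs, BMP4 among them) went from not well above background to well above it by all 3 of its probes. By probe A_66_P124091 the level was -7.62, -7.21, -7.60 and -7.65 in eGFP and 2.47, 2.04, 2.19 and 2.60 in Hoxa9-eGFP. By probe A_55_P1955627 it was -7.63, -7.61, -7.77 and -7.65 against -0.93, -0.63, -0.47 and -0.39. By probe A_55_P2123683 it was -7.22, -5.56, -5.93 and -5.52 against -1.16, -1.20, -1.02 and -1.12. No eGFP array was well above background by any of these probes, and every Hoxa9-eGFP array was. That pattern was found in 308 of 55501 probes, or 0.555%.

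Since the eGFP level is only a limit, the Chrdl1 change is given as an approximate bound. The bound sets the Hoxa9-eGFP mean against, on each eGFP array, whichever is brighter, that probe or the dimmest probe of the array that was well above background. Probes brighter than that dimmest one were not always well above background, so that limit is approximate. A higher limit would give smaller folds. Taking it as the eGFP level, the rise was 398-fold by A_66_P124091, 52.3-fold by A_55_P1955627 and 27.6-fold by A_55_P2123683. In the fit of all probes, which does not use the filter, the adjusted p-values were 9.08e-07, 2.46e-06 and 0.000298. On eGFP replicate 4, A_66_P124091 and A_55_P1955627 had an identical level (-7.65), as did Bmp4 probe A_55_P1959022. Such a shared level is a floor of the signal. The eGFP spread behind these p-values is therefore partly not spread among measured levels. With another background correction (normexp, which adds an offset of 50 to every signal) the differences were 5.43, 2.85 and 2.19 in log2 units, each still called. The folds above are 8.64, 5.71 and 4.79 in those units, so the size depends on the background correction. The probes lie 5336 to 12226 bases apart and carry 2 different transcript accessions, so probes of both accessions rose.

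Chrdl2 (chordin-like 2), the other chordin-like antagonist, also rose. Its level was -5.04, -5.78, -6.00 and -6.23 in the eGFP samples and -2.58, -3.33, -2.25 and -2.24 in the Hoxa9-eGFP samples. Of the eGFP arrays, replicate 1 alone was well above background, and the groups were far apart. The difference was 3.16 (SE 0.33, adjusted p = 0.000644, and 0.00128 in the fit of all probes). Its eGFP side is mostly at background, so no fold is given. It ranged from 2.45 to 3.99 over the 4 experiments. With the normexp correction it was 1.10 and still called.

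**Figure D2:**
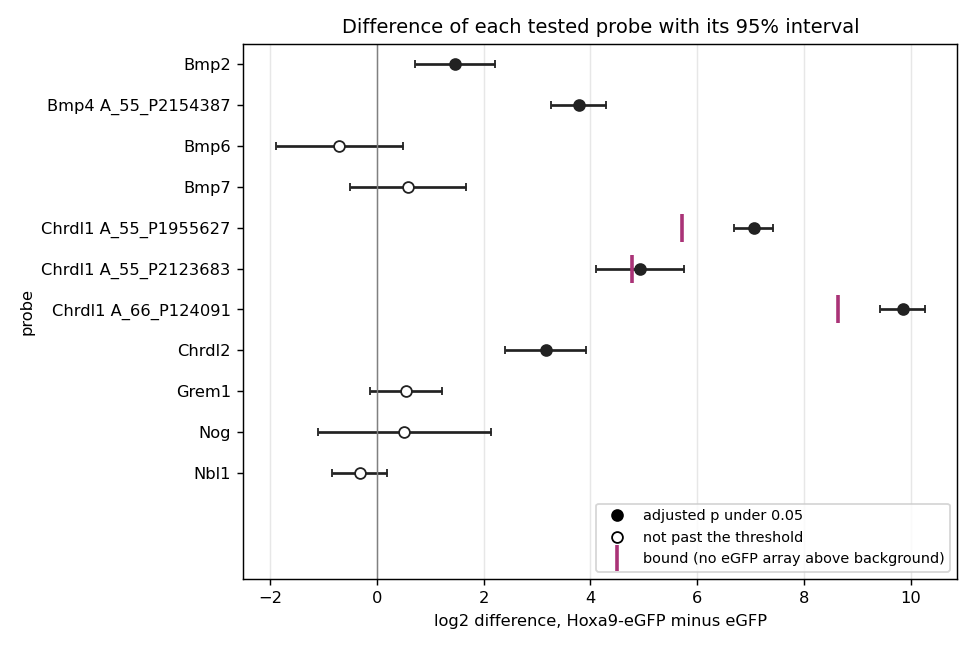
Difference of each of the 11 tested probes, Hoxa9-eGFP minus eGFP, in log2 units, with its 95% interval from limma. Filled points passed an adjusted p of 0.05 and open points did not. Purple ticks are the approximate bounds for the Chrdl1 probes, which no eGFP array showed above background. Some eGFP levels of these probes lay at the floor of the signal, which their intervals do not reflect. The intervals of Bmp6, Bmp7, Grem1, Nog and Nbl1 include 0.

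Grem1 (gremlin 1), Nog (noggin) and Nbl1 (the founding member of the DAN family, to which gremlin also belongs) are the classical antagonists measured here, and the test was not passed by any of them. Grem1 was at 3.00, 2.86, 2.35 and 2.49 in the eGFP samples and at 3.77, 3.63, 2.73 and 2.75 in the Hoxa9-eGFP samples. Experiments 1 and 2 were higher than 3 and 4 in both groups, and the groups overlapped. The difference was 0.54 (SE 0.29, 95% interval -0.13 to 1.22, adjusted p = 0.295). It was above 0 in 4 of 4 experiments (0.26 to 0.77), each spanning different slides, and -0.18, 1.35 and 0.24 within the slides. Without Hoxa9-eGFP replicate 1 it was 0.36. With the experiment as a block the SE was 0.16 and the adjusted p was 0.0879.

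Nog had the widest spread of the tested probes within the eGFP group. It was at -0.40, -0.33, 2.43 and 0.69 in the eGFP samples and at 1.48, 2.30, 0.53 and 0.14 in the Hoxa9-eGFP samples. The groups overlapped over most of their range, and the difference was 0.51 (SE 0.71, 95% interval -1.10 to 2.13, adjusted p = 0.671). Leaving out single arrays moved it widely, to 0.18 without eGFP replicate 1, 0.20 without eGFP replicate 2 and 1.12 without eGFP replicate 3. It was 0.12 without Hoxa9-eGFP replicate 2 and 0.84 without Hoxa9-eGFP replicate 4. The levels followed the slide, a pattern noticed after the values were seen. They were -0.40 to 0.14 on slide 1 (3 arrays), 1.48 to 2.43 on slide 2 (3 arrays) and 0.53 to 0.69 on slide 3 (2 arrays). Each slide held samples of both groups. All 3 slide 2 arrays stood above the other 5 in 0.67% of the tested probes, and by as much as in Nog (0.79) in 4 of 40771. With the slide as a block the Nog difference was -0.060 (SE 0.29, adjusted p = 0.916).

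Nbl1 was at 4.96, 5.10, 4.93 and 4.78 in the eGFP samples and at 4.62, 5.23, 4.43 and 4.23 in the Hoxa9-eGFP samples. Hoxa9-eGFP replicate 2 was the highest of the 8 arrays and the other 3 Hoxa9-eGFP samples were below every eGFP sample. The difference was -0.32 (SE 0.23, 95% interval -0.83 to 0.20, adjusted p = 0.418). It was -0.81, -0.0056 and -0.35 within the slides, -0.16 with quantile normalization, -0.52 without Hoxa9-eGFP replicate 2 and -0.18 without Hoxa9-eGFP replicate 4. A p above the threshold does not show that Bmp6, Bmp7, Grem1, Nog and Nbl1 were alike in the 2 groups, and the intervals give the sizes that remain possible.

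**Figure D3:**
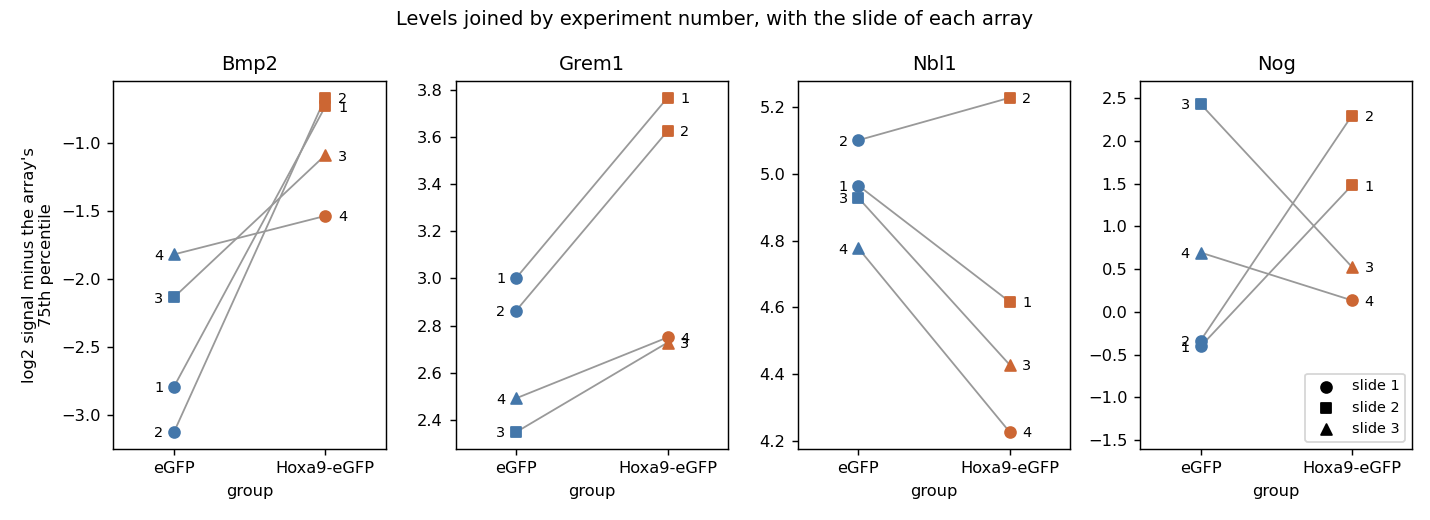
Levels of Bmp2, Grem1, Nbl1 and Nog (log2 processed signal minus the array's 75th percentile), with lines joining the eGFP and Hoxa9-eGFP samples of the same experiment number and the marker shape giving the slide. Bmp2 and Grem1 were higher in Hoxa9-eGFP in 4 of 4 experiments, Nbl1 lower in 3 of 4, and Nog sat highest on slide 2 in both groups.

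The other genes of the pathway were taken from 5 lists of ligands, extracellular modulators, receptors, transducers and targets. Of 69 genes 61 could be tested by their brightest kept probe, and 12 were called higher and 5 lower. The background over 27109 genes was 7.44% higher and 6.98% lower (14.4% in either direction). The median difference was 0.039, beside -0.073 over all genes.

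Of 8 tested ligands outside the 9 genes, 2 rose and 0 fell. Gdf6, a BMP-type ligand of joint and bone development, rose from -2.34 ± 0.61 to 0.34 ± 0.11, a difference of 2.68 (SE 0.29, adjusted p = 0.000754). Gdf15, a distant stress-induced member of the superfamily, rose by 1.86 (adjusted p = 0.000609). Of 16 tested extracellular modulators, 4 rose and 1 fell. Fst (follistatin, which binds activins and some BMPs) rose from 0.93 ± 1.07 to 5.64 ± 0.15, a difference of 4.71 (SE 0.47, adjusted p = 0.000539). Bmper, a secreted BMP-binding regulator of the crossveinless type, rose by 4.17 (SE 0.16, adjusted p = 1.4e-05) and stayed within 4.00 to 4.28 in the 4 experiments. Fstl1, a secreted follistatin-like glycoprotein, rose by 2.28 (adjusted p = 7.29e-05). The fourth riser, Fstl3, was named after its values were seen. Its difference was 0.71 (adjusted p = 0.0277, and 0.0529 in the fit of all probes). Cer1, a DAN-family antagonist like Grem1, was the one that fell. No Hoxa9-eGFP array was well above background for it, so it passed the filter only through the eGFP arrays. Taking the same approximate limit as the Hoxa9-eGFP level, the fall was 3.51-fold. The adjusted p was 0.0016, and 0.00315 in the fit of all probes. That call was lost with the normexp correction (difference -0.38, adjusted p = 0.0924). Chordin itself (Chrd) had a difference of -0.39 (adjusted p = 0.559).

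Among 13 tested receptors and coreceptors 3 rose and 2 fell. The type I BMP receptor Bmpr1b fell from -0.49 ± 0.14 to -2.23 ± 0.32, a difference of -1.74 (SE 0.19, adjusted p = 0.000767). Its other kept probe had a difference of -1.36 and was not called. The coreceptor Tgfbr3 (betaglycan) rose by 1.67 (adjusted p = 0.0101). The type I receptor Acvr1 (ALK2) rose by 0.74 (adjusted p = 0.0162), a call lost without eGFP replicate 2 (0.0559). Its 3 kept probes had the same sign, and 1 of them was called. The type I receptor Acvrl1 (ALK1) had a difference of -0.79 (adjusted p = 0.0275), and its call was lost in 10 of 21 alternatives, among them the experiment as a block (0.0572). The third riser, Neo1, a receptor for repulsive guidance molecules, was named after its values were seen. Its difference was 0.65 (adjusted p = 0.0328, and 0.0627 in the fit of all probes). The widely used receptors Bmpr1a and Bmpr2 had differences of -0.18 and 0.27 and did not pass the test.

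Of 12 intracellular transducers and inhibitors 3 rose and 0 fell. Smad9, one of the receptor-activated Smads of the BMP branch, rose from -4.84 ± 0.51 to -1.71 ± 0.25, a difference of 3.12 (SE 0.27, adjusted p = 0.000274). With the normexp correction it was 1.53 and still called. Smad1 and Smad5, the other Smads of that branch, had differences of 0.51 (adjusted p = 0.0679) and -0.050 (adjusted p = 0.897). The inhibitory Smad6 rose by 1.17 (adjusted p = 0.00551). The inhibitory Smad7 had a difference of 0.73 (adjusted p = 0.035), and its call was lost in 11 of 21 alternatives, among them the experiment as a block (0.0548).

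Of 14 known BMP target genes 2 rose and 2 fell, and the 2 that rose are Smad6 and Smad7 again. The Id genes code for inhibitors of basic helix-loop-helix factors such as MyoD. Id2 fell from 4.62 ± 0.26 to 3.11 ± 0.30, a difference of -1.51 (SE 0.21, adjusted p = 0.00216), lower in 4 of 4 experiments. Id4 had a difference of -0.84 (adjusted p = 0.0258), a call lost in 7 of 21 alternatives, and was -0.54 with the normexp correction. Id1 and Id3 had differences of -0.22 (adjusted p = 0.444) and -0.41 (adjusted p = 0.293). The called targets therefore ran in both directions.

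**Figure D4:**
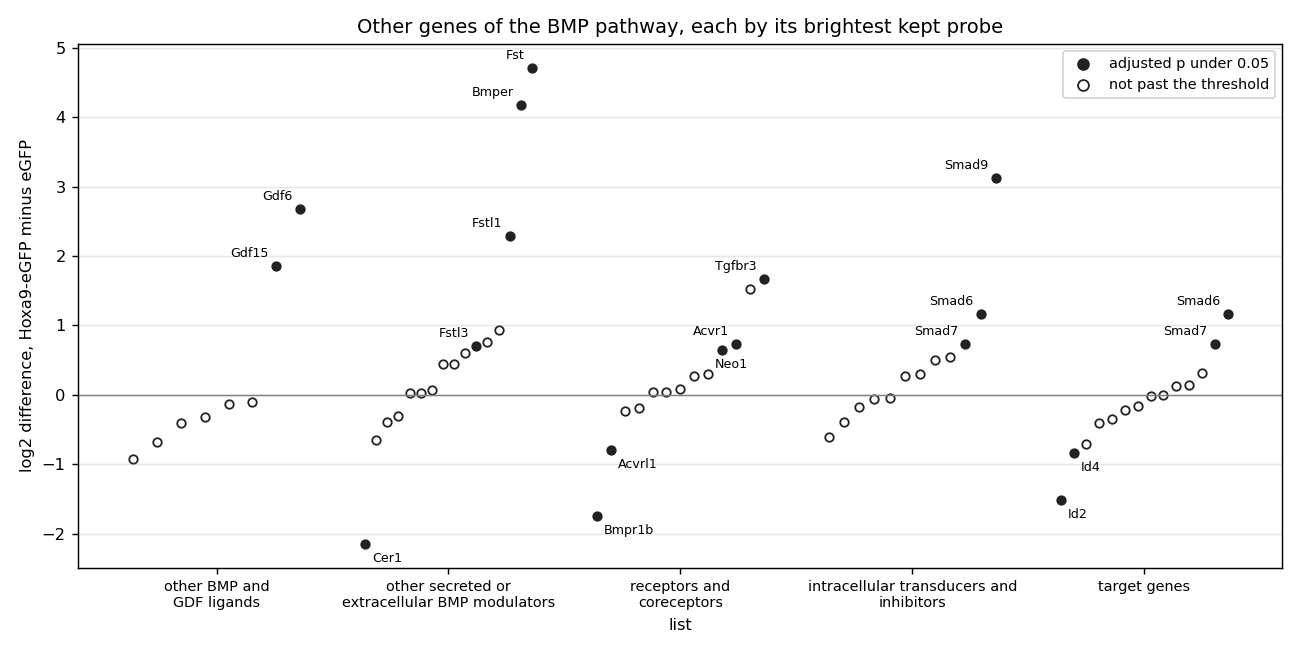
Difference of each tested pathway gene, Hoxa9-eGFP minus eGFP, in log2 units, by list and in rising order within a list. Filled, named points passed an adjusted p of 0.05 and open points did not. Fst, Bmper, Smad9 and Gdf6 stand highest, and Cer1, Bmpr1b and Id2 lowest; Smad6 and Smad7 appear in 2 lists.

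Markers of the cell types that such cultures can hold were also compared between the groups. The background over all genes was 7.44% higher and 6.98% lower. Of 7 tested satellite cell and myoblast markers 4 fell and 0 rose. The differences were -2.59 for Vcam1, -1.62 for Myf5, -1.30 for Pax7 and -0.76 for Itga7. Their summed level (processed signal relative to the array's 75th percentile) was 244 to 341 in eGFP and 155 to 180 in Hoxa9-eGFP. Such sums are on a linear scale, so the brightest probe of a list weighs most. Here that is Itga7, with a mean level of 7.36 in eGFP, and in the smooth muscle list Acta2 (6.52). The sums do not measure amounts of a cell type. Of 8 fibroblast and fibro-adipogenic markers 1 rose, Ly6a, by 4.55, and 0 fell. The markers of that list that were not called ran in both directions. Lum, Pdgfra and Col3a1 were lower in 4 of 4 experiments, though Lum was well above background on only 2 Hoxa9-eGFP arrays. Thy1 was higher in 4 of 4 experiments, and Col1a1, Cd34 and Dcn had differences above 0. The fibroblast list's sum was 20.9 to 35.3 in eGFP and 38.2 to 64.1 in Hoxa9-eGFP. Of 8 smooth muscle and pericyte markers Cnn1 rose and Acta2 fell, with sums of 115 to 175 and 69.8 to 115. Of 3 tested endothelial markers 0 were called, Emcn, Tek and Tie1 not passing the filter, with sums of 8.90 to 14.5 and 11.5 to 17.6. Of 5 tested macrophage and leukocyte markers Laptm5 fell, Ptprc not passing the filter, with sums of 36.5 to 57.7 and 33.4 to 48.5. Of 4 tested Schwann and neural markers Ngfr fell, with sums of 1.83 to 2.52 and 1.22 to 1.44. Their part in the BMP results was not tested.

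The genes whose levels ran most like the called ligands were sought among 14206 named genes well above background on all 8 arrays. For Bmp4 they were Fam78b (Pearson r = 0.998), Tspan7 (0.995) and Mmp2 (0.995). For Bmp2 they were Kif1b (0.987), Suox (0.987) and Vhl (0.985). These are descriptions over 8 arrays that fall into 2 groups, which sets much of r for Bmp4. Within groups r was 0.900, 0.845 and 0.764 for the first set and 0.949, 0.949 and 0.941 for the second. The genes were picked by r over these same arrays, so the values within groups are raised by that choice too.

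Bmp4 is shown with its promoter because it was the called ligand with the larger change and had an entry in the RefSeq promoter table, as 4 of the 9 genes did. The 250 bases before its start (RefSeq, GRCm38.p6, chr14:46390670-46390919, minus strand) are given 5′ to 3′, with matches to the E-box pattern CANNTG in capitals.
Bmp4 promoter: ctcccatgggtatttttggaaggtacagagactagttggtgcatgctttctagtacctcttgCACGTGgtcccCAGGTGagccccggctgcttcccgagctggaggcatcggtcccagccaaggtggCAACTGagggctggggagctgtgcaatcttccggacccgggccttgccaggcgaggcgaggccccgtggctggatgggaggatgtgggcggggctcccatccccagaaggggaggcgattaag
The motifs below were searched on both strands. CANNTG had 3 matches and is present in 66.2% of 32851 promoters of that length. TTTAT, a core of sites bound by posterior HOX proteins, had 0 matches and is present in 37.3%. GGCGCC, a GC-rich BMP-Smad element, had 0 matches and is present in 9.59%. CANNTG and GGCGCC read the same on both strands. These counts describe the letters of this window and nothing about binding.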

How the data were processed

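Gene expression was measured on 8 Agilent 1-colour arrays, 4 eGFP and 4 Hoxa9-eGFP. The deposited intensity values are each array's scanner output, made by the authors with Agilent Feature Extraction 10.7.3.1, per the submitters' processing notes; the file headers record background subtraction and detrending, with no scaling between arrays. The deposited value table, used only as an alternative, has no decimal point in most cells (86.1% to 87.3%). After repair it held log2 signals shifted by a constant per array.

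Control and outlier spots were left out and spots of a probe averaged. Of 55681 non-control probes, 180 were dropped because an array had only outlier spots for them. The processed signal was taken to log2, and each array's 75th percentile was subtracted. A probe was kept if 4 or more of the 8 arrays had it well above background (40771 probes). The comparison used limma 3.58.1 under R 4.3.3 (lmFit, eBayes, two-sided, Benjamini-Hochberg over all probes, threshold 0.05), a script tested on simulated data. Names were updated by accession from a RefSeq gene table of another assembly (27542 probes matched, 1705 changed). Array number limits the precision.

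The text names every member probe, Hoxa9, up to 4 called genes of lowest adjusted p from each pathway list, and the 3 genes most correlated with each called member well above background on all arrays; genes named otherwise, such as Id1, Id3, Chrd, Smad1, Smad5, Bmpr1a, Bmpr2, Fstl3 and Neo1, were chosen after their values were seen. The members and lists were chosen with earlier results of these data known.

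To check the experiment numbers of the titles, deviations from each group's mean were correlated. Samples of the same number gave 0.145, 0.217, 0.124 and 0.168, all above 0.1 but weak. Whether the numbers pair the samples was not tested. The main fit does not use the numbers, and an alternative fit has them as a block. Samples of the same number lay on different slides, so that block also takes in slide differences. Among 12 unlike pairs 2 exceeded 0.1, eGFP 4 with Hoxa9-eGFP 3 (0.172) and eGFP 3 with Hoxa9-eGFP 4 (0.117). Other alternatives were quantile and median normalization, normexp (offset 50), no filter or a stricter one, the slide as a block, a trend with a robust prior, array weights, 1 probe per gene and leaving out each array. Sequences are printed for the probes of Bmp2, Bmp4, Chrdl1 and Chrdl2, and not reported here for the others.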

Additional observations from a re-analysis of the deposited data

Results flagged for a closer look

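In 3 of 24 groups of 4 samples, 1 sample lay far from the others, where the gap to the nearest sample took a share of the group's range above Dixon's critical value. Chance gives about 1 in 20. In Bmp6 in Hoxa9-eGFP the share was 0.907, with levels from -6.47 to -4.02, and the low sample was not well above background. In Bmp4 probe A_55_P1959022 in eGFP it was 0.950 (-7.77 to -5.18). In Chrdl1 probe A_66_P124091 in eGFP it was 0.868 (-7.65 to -7.21). In both of these eGFP groups no array was well above background.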

How the results depend on the processing

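Over 11 member probes and their alternatives, 217 of 223 values kept their direction and their side of the threshold. The call of Bmp2 was lost in 5, and the Nog difference reversed in 1, to -0.060 with the slide as a block. The Bmp2 difference was 0.99 to 1.68 over its 21 alternatives (adjusted p 0.00362 to 0.118). The called probe of Bmp4 kept its call in 21 of 21 alternatives (3.43 to 3.90). The count of member probes called higher was 2 among probes well above background on all 8 arrays, since those of Chrdl1 and Chrdl2 leave that test. It was 5 with the replicate block, which took the call of Bmp2 and no other member's. It was 5 to 6 when each array was left out in turn, and 0 were called lower under every alternative run.

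For the other pathway genes the count called higher was 8 to 11 with arrays left out (8 without eGFP replicate 2) and 10 with the replicate block. The count called lower was 3 with the slide as a block, 3 with no filter and the replicate block together, 4 with the replicate block and 3 to 5 with arrays left out, the 3 coming without eGFP replicate 2 or Hoxa9-eGFP replicate 1. The tally over 15 named genes left out Fstl3 and Neo1. Of its 314 values, 282 kept direction and call and 32 lost the call, in Cer1, Acvr1, Acvrl1, Smad7 and Id4. The causes were not tested. No filter with the replicate block, and no filter with normexp, were chosen after seeing the data. The planned test between the probes of 1 gene was not run, since no member has 2 probes well above background on all 8 arrays. The median difference of all probes was -0.099 to 0.026 over the alternatives. Signal over background limits the sizes for Chrdl1, Chrdl2, Bmp6, Bmp7 and Cer1, whose probes were not well above background on some arrays, and the normexp correction moved the difference of each by over 1.5 times, as it did for Smad9, Id4 and the Hoxa9 probe that fell (to -1.03).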
